A study of Homo sapiens with 6 samples.

Results

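The 32 genes described here encode the route of glucose through a cell: its uptake across the plasma membrane, the steps of glycolysis, the enzymes that set the level of fructose 2,6-bisphosphate, the making and export of lactate, and the pentose phosphate pathway. They were listed by gene name along the pathway, and all 32 were among the 16910 gene rows of the deposited table. All 32 also passed the filter on low counts, which left 13235 genes to be tested. The libraries are RNA-seq of TOV21G, an established line from an ovarian clear cell carcinoma, in 3 groups of 2. In siGYS1 libraries GYS1, the muscle-type glycogen synthase, was knocked down. In sip53 libraries p53 was knocked down, and NC libraries, whose genotype is given as WT, are read here as cells with a control siRNA. All the groups are thus 1 cell line, and the sources used here do not give the siRNA sequences, the dose or the time after transfection. The series' stated question concerns what GYS1 and p53 do in this line. Nothing in the labels says that the 2 libraries of a group came from separate cultures, so the p-values speak only to how far these libraries spread, which may be technical.

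As background, glucose enters through facilitative carriers of the SLC2A family and is trapped by hexokinase as glucose 6-phosphate, which can be made into glycogen, broken down by glycolysis to pyruvate, or sent into the pentose phosphate pathway to yield NADPH and ribose 5-phosphate. Most steps of glycolysis are shared by enzymes from more than 1 gene, and these isoenzymes differ in kinetics and in the tissues that use them. Tumour cells often turn much of their pyruvate into lactate, and clear cell carcinomas of the ovary are known for storing glycogen.

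The total read count was between 17425000 and 18097337 per library. GYS1 checked the siGYS1 label: it had 2.33 and 2.15 TPM in siGYS1 libraries and 39.3 and 40.7 TPM in sip53 libraries, against 37.6 and 33.4 TPM in NC libraries. TPM is a level that takes the length of the transcript into account. The first siGYS1 library and the second NC library stood apart from the others by transcript length. Across genes, the deviation of a library from the mean of all had a Spearman correlation with transcript length of 0.54 in the first siGYS1 library and -0.39 in the second NC library, against -0.08 to 0.04 in the other 4. Counts of genes that changed are therefore also given without these 2 libraries. That fit leaves 1 library each in siGYS1 and NC, so its spread comes from the sip53 pair alone. Genes of an epithelial list were present, with a summed 380 and 423 TPM in siGYS1 libraries, 445 and 427 TPM in sip53 libraries, and 573 and 569 TPM in NC libraries. Of the 6 epithelial genes tested, 3 fell and none rose against NC in each knockdown. Those that fell included EPCAM (log2 fold change -1.54) and CDH1 (-1.03) with sip53, and KRT19 (-1.52) with siGYS1. These genes were low, with a mean over all libraries of 3.21 FPKM for EPCAM, 1.44 for CDH1 and 1.20 for KRT19. FPKM is another level that takes transcript length into account. The epithelial sum thus came mostly from the other genes of that list. Fibroblast genes summed to 213 and 186 TPM in siGYS1 libraries, 119 and 120.2 TPM in sip53 libraries, and 234 and 216 TPM in NC libraries. Of the 3 tested, 2 fell with sip53 and DCN rose, with 70 and 57 reads in sip53 libraries against 3 and 4 reads in NC libraries. The 4 leukocyte genes in the table summed to between 14.3 and 18.5 TPM. The 3 endothelial genes summed to 0.58 and 0.40 TPM in siGYS1 libraries and 1.99 and 1.20 TPM in sip53 libraries, against 0.62 and 0.42 TPM in NC libraries, and both that were tested were higher in sip53 than in NC and lower in siGYS1 than in sip53. No marker of these lists was at 0 in all libraries. A list of clear cell carcinoma genes summed to 4165 and 4227 TPM in siGYS1 libraries, 1376 and 1218 TPM in sip53 libraries, and 4962 and 4828 TPM in NC libraries. SPP1 gave most of that sum, with 939 and 793 TPM in sip53 libraries against 4475 and 4387 TPM in NC libraries, and it fell with sip53, while GPX3, at 4 to 18 reads per library, rose. Of the 5 clear cell carcinoma genes tested, 2 fell and 1 rose with sip53, and none changed with siGYS1. Replication-dependent histone transcripts, which mostly have no poly(A) tail, were listed as a check of how RNA was selected. They summed to 91.1 and 103 TPM in siGYS1 libraries, 228 and 196 TPM in sip53 libraries, and 90.0 and 114 TPM in NC libraries. Of the 7 histone genes tested, 6 were higher in sip53 than in NC and none was lower. What raised them was not tested. The histone and endothelial sums were thus high in the same libraries in which many of the 32 genes were high, and their part in the results below was not tested.

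With siGYS1, 13 of the 32 genes rose and 2 fell against NC, while 17 did not pass the test. Over all genes tested, 10.4% rose and 9.24% fell in that comparison. With sip53, 21 of the 32 rose and 3 fell against NC, beside 23.4% and 26.5% of all genes. Between the knockdowns, 2 of the 32 were higher and 20 were lower in siGYS1 than in sip53, beside 22.5% and 20.9% of all genes. The median log2 fold change of the 32 was 0.16 for siGYS1 against NC, 0.51 for sip53 against NC and -0.46 for siGYS1 against sip53, where the medians of all genes were -0.01, -0.03 and 0.01. Of the 15 genes from hexokinase to pyruvate kinase, 4 rose and 1 fell with siGYS1, 11 rose and none fell with sip53, and 12 were lower in siGYS1 than in sip53. Of the 5 genes of lactate and pyruvate fate, 3 rose with siGYS1 and 4 with sip53, and 3 were lower in siGYS1 than in sip53. A gene was called changed where edgeR's quasi-likelihood test on the read counts gave a Benjamini-Hochberg adjusted p below 0.05 over all 13235 genes, and fold changes throughout are log2 values from that fit with their standard errors (SE). The comparisons with NC share the same 2 NC libraries, so a low or high NC value enters both. All 6 libraries also share 1 estimate of the spread, although replicates differed less in sip53 than in siGYS1 or NC. The p-values of siGYS1 against NC thus draw in part on the closer sip53 pair. Fitted on the siGYS1 and NC libraries alone, 9 of the 32 genes rose and 2 fell with siGYS1, beside 808 and 769 over all genes. In bulk RNA, a shift in the share of cells that hold a transcript and a shift in its amount per cell cannot be told apart. Leaving out the first siGYS1 and the second NC library together gave 16 genes up and 2 down for siGYS1 against NC, 23 up and 3 down for sip53 against NC, and 3 up and 21 down for siGYS1 against sip53. Scaling by library size alone in place of the TMM method turned the split over all genes for siGYS1 against NC to 1033 up and 1586 down, beside 1379 and 1223, and for sip53 against NC to 2450 up and 4326 down, beside 3103 and 3502, with the median of all genes at -0.12 in the sip53 comparison. Leaving out the second NC library alone left 8 genes up for siGYS1 against NC, and leaving out the first sip53 library left 1 gene down for sip53 against NC and 1 higher in siGYS1 than in sip53.

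**Figure D1:**
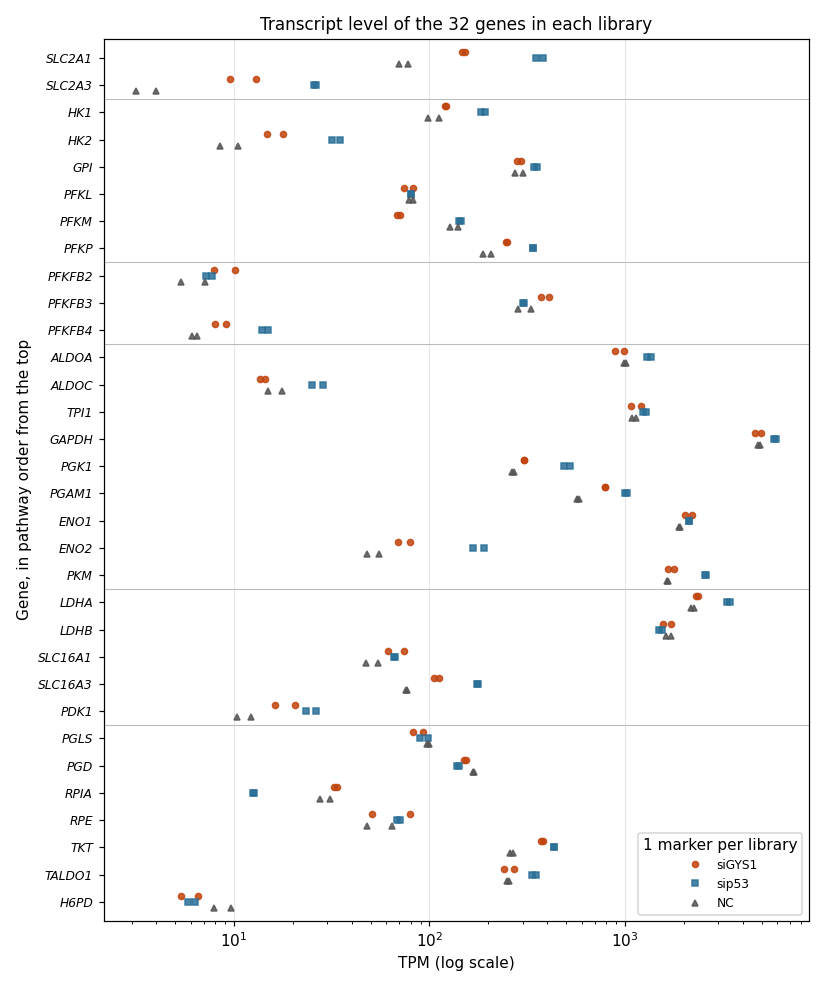
Level of each of the 32 genes in TPM on a log axis, 1 marker per library, with genes in pathway order from the top. The largest distances between groups are those of SLC2A1 and SLC2A3 at the top, where both sip53 libraries lie highest, both siGYS1 libraries between and both NC libraries lowest; RPIA near the bottom is low in sip53 libraries, and PFKM is low in siGYS1 libraries.

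The summed level of the 32 genes was 17928 and 18971 TPM in siGYS1 libraries, 23222 and 22805 TPM in sip53 libraries, and 17540 and 17593 TPM in NC libraries. That is 1.79% and 1.90% of all transcripts in siGYS1 libraries, 2.32% and 2.28% in sip53 libraries, and 1.75% and 1.76% in NC libraries. The mean sum was 1.05 times that of NC in siGYS1 and 1.31 times in sip53. The siGYS1 libraries overlapped neither group, but the lower of them lay closer to the higher NC library than to the other siGYS1 library. GAPDH, LDHA, ENO1, PKM and LDHB gave most of the sum in every library, so the sum says little of the uptake and regulatory genes, whose levels were lower.

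The glucose carriers rose in both knockdowns and had the largest rises among the 32 genes. SLC2A1, which encodes the carrier GLUT1, lies at chr1:42925375-42959176 on the minus strand (GRCh38). It had 153 and 146 TPM in siGYS1 libraries and 383 and 351 TPM in sip53 libraries, against 77.2 and 70.1 TPM in NC libraries. No pair of groups overlapped. The log2 fold change was 0.97 with siGYS1 (SE 0.08, adjusted p = 0.000133), a 1.95-fold rise, and 2.42 with sip53 (SE 0.09, adjusted p = 1.28e-07), a 5.33-fold rise. SLC2A3, which encodes the high-affinity carrier GLUT3, lies at chr12:7919230-7936275 on the minus strand. It was the rarest of the 32 transcripts in NC libraries, with 13.0 and 9.49 TPM in siGYS1 libraries and 25.7 and 26.3 TPM in sip53 libraries, against 3.98 and 3.14 TPM in NC libraries. The groups were again apart. The log2 fold change was 1.63 with siGYS1 (SE 0.13, adjusted p = 9.74e-05) and 2.94 with sip53 (SE 0.13, adjusted p = 3.75e-07), or 3.09-fold and 7.70-fold. Both carriers were lower in siGYS1 than in sip53, SLC2A1 by a log2 value of -1.45 (SE 0.08, adjusted p = 2.26e-06) and SLC2A3 by -1.32 (SE 0.12, adjusted p = 2.51e-05). SLC2A3 made up 7.86% and 6.09% of the TPM of the pair in siGYS1 libraries and 6.28% and 6.98% in sip53 libraries, against 4.90% and 4.29% in NC libraries, so GLUT1 remained the main transcript of the pair in every library. SLC2A14, a near copy of SLC2A3 from which reads could be misassigned, reached at most 0.03 TPM.

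**Figure D2:**
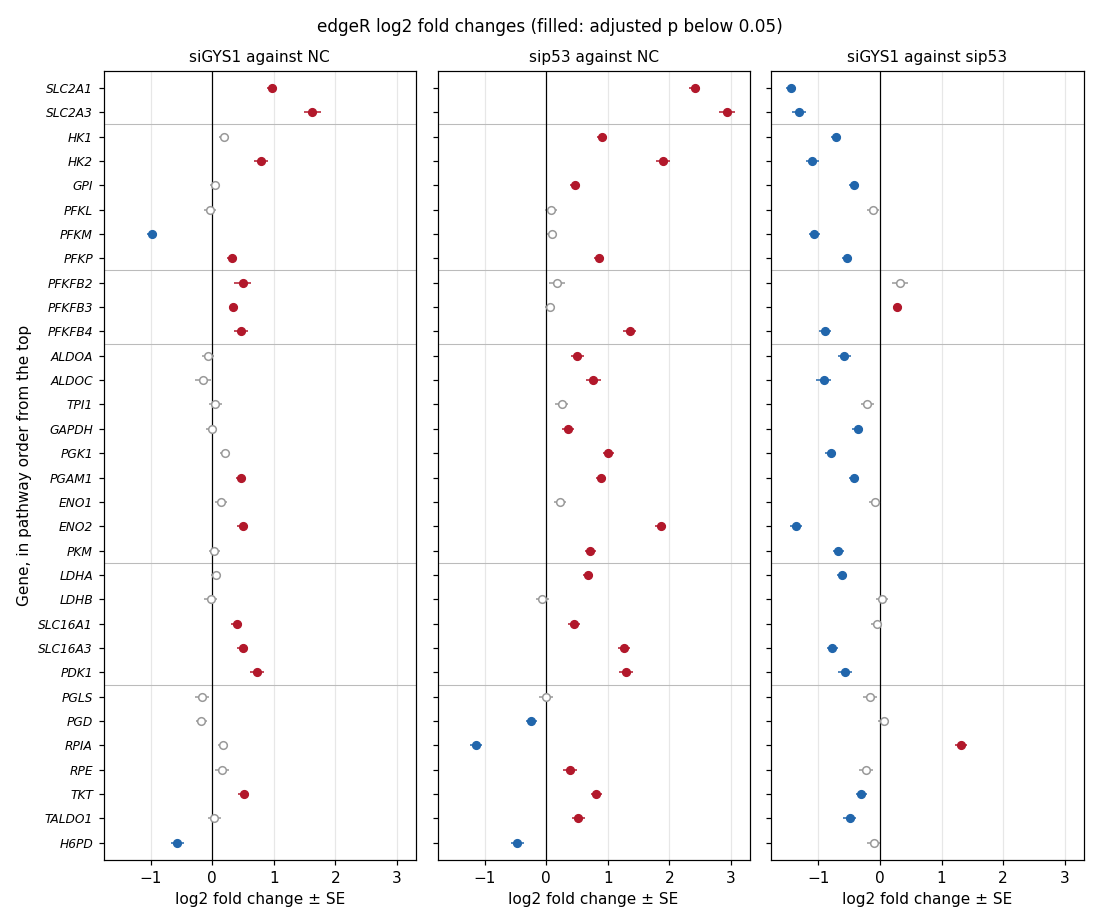
edgeR log2 fold changes with their SE for the 32 genes in pathway order, for siGYS1 against NC, sip53 against NC and siGYS1 against sip53; filled markers passed an adjusted p of 0.05. The middle panel has 21 filled markers right of 0 and 3 left of it, and the right-hand panel has 20 left of 0 and 2 right of it.

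Hexokinase commits glucose to the cell by phosphorylating it. HK1, the widely used form, had 122 and 119.7 TPM in siGYS1 libraries and 192 and 183 TPM in sip53 libraries, against 112 and 97.8 TPM in NC libraries. It rose with sip53 (log2 fold change 0.91, SE 0.08, adjusted p = 2.31e-05), whereas siGYS1 gave 0.20 (SE 0.08, adjusted p = 0.124), short of the threshold. HK2, the inducible form, lies at chr2:74833981-74893359 on the plus strand and had 17.9 and 14.8 TPM in siGYS1 libraries and 35.01 and 31.6 TPM in sip53 libraries, against 10.5 and 8.50 TPM in NC libraries. The groups did not overlap, and HK2 rose with siGYS1 (0.80, SE 0.11, adjusted p = 0.00157) and with sip53 (1.89, SE 0.11, adjusted p = 1.64e-06). The difference between the knockdowns was itself past the threshold, at -1.10 (SE 0.11, adjusted p = 4.41e-05) for siGYS1 against sip53. HK2 held 12.8% and 10.98% of hexokinase TPM in siGYS1 libraries and 15.4% and 14.7% in sip53 libraries, against 8.56% and 8.0% in NC libraries. GPI, which turns glucose 6-phosphate into fructose 6-phosphate, had 279.6 and 295 TPM in siGYS1 libraries and 343 and 354 TPM in sip53 libraries, against 302 and 273 TPM in NC libraries. GPI rose with sip53 (0.47, SE 0.09, adjusted p = 0.00166), and the siGYS1 libraries lay within the range of NC.

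Phosphofructokinase 1, the step that commits sugar to glycolysis, showed a different pattern in each of its 3 genes. PFKM, named for the muscle form, lies at chr12:48105139-48146404 on the plus strand. It had 70.6 and 68.5 TPM in siGYS1 libraries and 142 and 144 TPM in sip53 libraries, against 139 and 128 TPM in NC libraries. Its level with siGYS1 was 50.9% of that in NC, a log2 fold change of -0.97 (SE 0.08, adjusted p = 0.000109), while sip53 against NC gave 0.09 (SE 0.08, adjusted p = 0.373). PFKM was also lower in siGYS1 than in sip53, by -1.06 (SE 0.08, adjusted p = 1.04e-05). PFKP, the platelet form and the most abundant of the 3, had 249 and 247 TPM in siGYS1 libraries and 339.9 and 338 TPM in sip53 libraries, against 206 and 189 TPM in NC libraries. It rose with siGYS1 (0.32, SE 0.08, adjusted p = 0.0207) and more with sip53 (0.86, SE 0.08, adjusted p = 2.52e-05), the difference being -0.54 (SE 0.08, adjusted p = 0.000504). The siGYS1 call of PFKP was lost on leaving out either sip53 library (adjusted p = 0.0674 each), the first NC library (0.0849) or the second (0.128), with the log2 fold change at 0.32 each time. PFKL, the liver form, had 74.4 and 82.1 TPM in siGYS1 libraries and 80.3 and 80.5 TPM in sip53 libraries, against 82.0 and 79.0 TPM in NC libraries, and its 95% intervals were -0.26 to 0.18 for siGYS1 against NC and -0.15 to 0.29 for sip53 against NC.

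The summed level of the 3 genes was 394 and 398 TPM in siGYS1 libraries and 562 and 563 TPM in sip53 libraries, against 427 and 396 TPM in NC libraries. The siGYS1 sum thus overlapped that of NC, as did the share of PFKL, while the shares of PFKM and PFKP did not. PFKM was 17.95% and 17.2% of the sum in siGYS1 libraries and 25.3% and 25.7% in sip53 libraries, against 32.6% and 32.4% in NC libraries. PFKP was 63.1% and 62.1% in siGYS1 libraries and 60.4% and 60.0% in sip53 libraries, against 48.2% and 47.7% in NC libraries. These shares, and the sums of TPM, are given as descriptions and were not tested. Of the exonic bases of PFKM, 8.58% are shared with SENP1 on the opposite strand, and the sources used here do not say whether strand was used in counting.

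**Figure D3:**
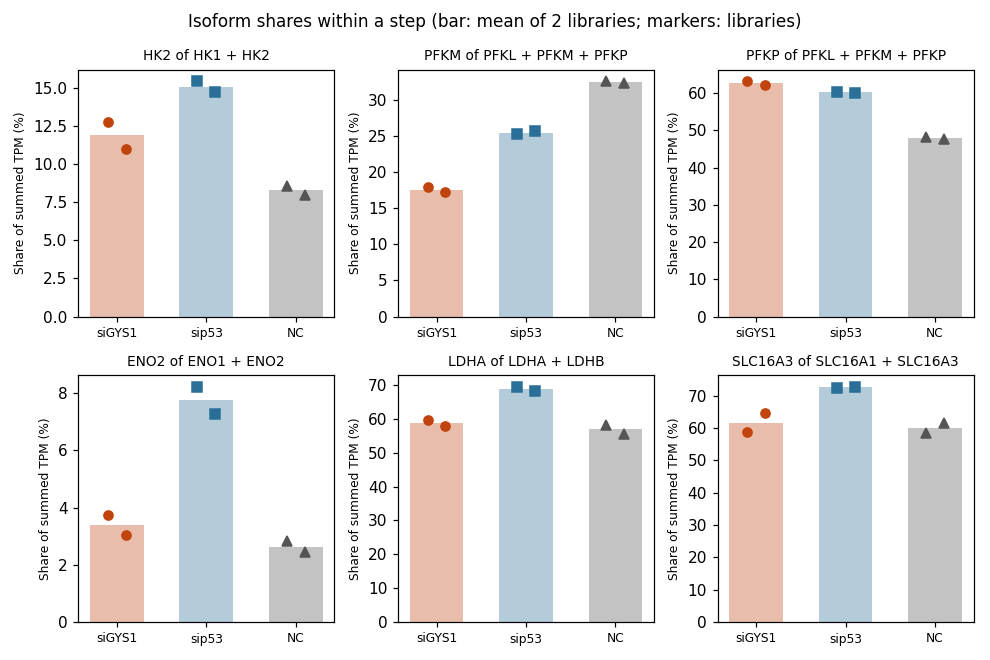
Share of 1 isoenzyme or transporter in the summed TPM of its step, in percent, with bars at the mean of 2 libraries and 1 marker per library. PFKM lies between 17.2% and 17.95% in siGYS1 libraries and between 32.4% and 32.6% in NC libraries; the shares of HK2, ENO2, LDHA and SLC16A3 are highest in sip53 libraries.

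The PFKFB genes encode bifunctional enzymes that make and remove fructose 2,6-bisphosphate, the strongest activator of phosphofructokinase 1. All 3 measured here rose with siGYS1, and PFKFB4 alone of the 3 passed the test with sip53. PFKFB3, whose kinase activity is dominant, lies at chr10:6144934-6254644 on the plus strand and had 411 and 371 TPM in siGYS1 libraries and 302 and 303 TPM in sip53 libraries, against 329 and 283 TPM in NC libraries. It rose against NC (0.34, SE 0.08, adjusted p = 0.015), and it and RPIA were the 2 genes of the 32 that were higher in siGYS1 than in sip53 (0.28 for PFKFB3, SE 0.08, adjusted p = 0.0161). PFKFB4 had 9.11 and 7.99 TPM in siGYS1 libraries and 14.9 and 13.9 TPM in sip53 libraries, against 6.50 and 6.08 TPM in NC libraries. It rose with siGYS1 (0.47, SE 0.11, adjusted p = 0.0179) and with sip53 (1.36, SE 0.11, adjusted p = 8.96e-06). PFKFB2 had 10.1 and 7.90 TPM in siGYS1 libraries and 7.70 and 7.15 TPM in sip53 libraries, against 7.13 and 5.35 TPM in NC libraries, with 0.49 for siGYS1 against NC (SE 0.13, adjusted p = 0.0282) and 0.17 for sip53 against NC (adjusted p = 0.306). PFKFB3 made up 93.0% to 96.1% of the summed TPM of the 3 in every library.

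The 3 siGYS1 calls of this family were not stable to leaving out a library. Without the second NC library the adjusted p was 0.131 for PFKFB3, 0.0917 for PFKFB4 and 0.204 for PFKFB2. Without that library and the first siGYS1 library, PFKFB4 stood at 0.38 and PFKFB2 at 0.20. PFKFB3 was also above 0.05 without the first or the second sip53 library (0.0521 and 0.0518), and its difference from sip53 likewise (0.117 and 0.107). PFKFB4 was above it without the first siGYS1 library (0.0684) or the first NC library (0.0734). PFKFB2 was above it without the first siGYS1 library (0.0896) or either sip53 library (0.0656 and 0.0638), while its difference from sip53 (0.32, adjusted p = 0.0735) passed without the second siGYS1 library (0.46, adjusted p = 0.00381).

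From aldolase to pyruvate kinase, 7 of the 9 genes rose with sip53, all but TPI1 and ENO1, whereas PGAM1 and ENO2 rose with siGYS1. Aldolase splits fructose 1,6-bisphosphate. ALDOA had 892 and 987 TPM in siGYS1 libraries and 1361 and 1289.9 TPM in sip53 libraries, against 984 and 1016 TPM in NC libraries. It rose with sip53 (0.51, SE 0.10, adjusted p = 0.00236), and 42.3% of its exonic bases are shared with AC093512.2 on the same strand, so its counts are uncertain. ALDOC, the form known from brain, had 14.4 and 13.7 TPM in siGYS1 libraries and 28.6 and 25.1 TPM in sip53 libraries, against 15.0 and 17.7 TPM in NC libraries. It rose with sip53 by 0.76 (SE 0.12, adjusted p = 0.000686). PGK1, the first ATP-yielding step, had 305 and 306 TPM in siGYS1 libraries and 526 and 488 TPM in sip53 libraries, against 264 and 269.7 TPM in NC libraries. Its rise with sip53 was 2.01-fold (1.01, SE 0.09, adjusted p = 1.83e-05). With siGYS1 the groups did not overlap but the log2 fold change of 0.21 (SE 0.09) had an adjusted p of 0.124. That fold change was 0.33 without the first siGYS1 and the second NC library. PGAM1, phosphoglycerate mutase, had 789 and 795 TPM in siGYS1 libraries and 1001 and 1022 TPM in sip53 libraries, against 583 and 567 TPM in NC libraries, and rose with siGYS1 (0.46, SE 0.08, adjusted p = 0.00473) and sip53 (0.89, SE 0.08, adjusted p = 2.34e-05). Its near copy PGAM4 reached at most 0.24 TPM.

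Enolase makes phosphoenolpyruvate, and its isoenzymes differed. ENO2, the neuronal form, had 79.1 and 68.6 TPM in siGYS1 libraries and 190.1 and 167 TPM in sip53 libraries, against 54.9 and 47.9 TPM in NC libraries. It rose 1.41-fold with siGYS1 (0.49, SE 0.09, adjusted p = 0.00715) and 3.63-fold with sip53 (1.86, SE 0.10, adjusted p = 8.78e-07), and was lower in siGYS1 than in sip53 by -1.37 (SE 0.09, adjusted p = 5.81e-06). ENO1, the ubiquitous form, had 2039 and 2192 TPM in siGYS1 libraries and 2119 and 2124 TPM in sip53 libraries, against 1892 and 1921 TPM in NC libraries. Its log2 fold changes were 0.14 with siGYS1 (adjusted p = 0.326) and 0.23 with sip53 (adjusted p = 0.0723). Without the first siGYS1 and the second NC library they were 0.32 and 0.29. ENO2 was 3.74% and 3.03% of enolase TPM in siGYS1 libraries and 8.23% and 7.27% in sip53 libraries, against 2.82% and 2.43% in NC libraries, so ENO1 stayed the main form throughout. PKM, pyruvate kinase, whose M1 and M2 splice forms a count per gene cannot separate, had 1659 and 1780.3 TPM in siGYS1 libraries and 2573 and 2602 TPM in sip53 libraries, against 1668 and 1651 TPM in NC libraries. PKM rose with sip53 by 0.72 (SE 0.09, adjusted p = 0.000144) and gave 0.04 with siGYS1 (adjusted p = 0.802), which was 0.18 without those 2 libraries.

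GAPDH, often used as a loading control, was the most abundant of the 32 genes in every library. It had 4619 and 4996 TPM in siGYS1 libraries and 5961 and 5794 TPM in sip53 libraries, against 4798 and 4916 TPM in NC libraries. It rose with sip53 by 0.35 (SE 0.09, adjusted p = 0.0107) and gave -0.01 with siGYS1 (SE 0.09, adjusted p = 0.947). The siGYS1 value turned to 0.17 without the first siGYS1 and the second NC library. The sip53 call was lost without the first sip53 library (adjusted p = 0.0816), the second (0.0595) or the first NC library (0.0695), and the difference of siGYS1 from sip53 was lost without either sip53 library (0.0846 and 0.0657). TPI1, triose phosphate isomerase, had 1077 and 1215 TPM in siGYS1 libraries and 1280.1 and 1244 TPM in sip53 libraries, against 1092 and 1134 TPM in NC libraries. Its log2 fold change was 0.05 with siGYS1 (adjusted p = 0.784) and 0.26 with sip53 (SE 0.10, adjusted p = 0.066). Without the first siGYS1 and the second NC library these were 0.26 and 0.34. TPI1 and ENO1 passed with sip53 when either siGYS1 library was left out, with adjusted p of 0.0136 and 0.00961 for TPI1 and 0.0213 and 0.0162 for ENO1. The difference of TPI1 between siGYS1 and sip53 (-0.21, adjusted p = 0.131) passed without the second siGYS1 library (-0.36, adjusted p = 0.00941).

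Lactate dehydrogenase interconverts pyruvate and lactate, and its subunits parted with sip53. LDHA, the subunit that favours lactate, lies at chr11:18394388-18408425 on the plus strand and had 2318 and 2361 TPM in siGYS1 libraries and 3438 and 3325 TPM in sip53 libraries, against 2267 and 2180.1 TPM in NC libraries. LDHA rose with sip53 by 0.68 (SE 0.08, adjusted p = 0.00012) and gave 0.07 with siGYS1 (adjusted p = 0.59). LDHB had 1564 and 1711 TPM in siGYS1 libraries and 1499.7 and 1545 TPM in sip53 libraries, against 1616 and 1730.1 TPM in NC libraries. Its 95% intervals were -0.26 to 0.20 for siGYS1 against NC and -0.29 to 0.17 for sip53 against NC. Its difference between siGYS1 and sip53 (0.03, adjusted p = 0.823) was 0.14 without the first siGYS1 and the second NC library. LDHA was 59.7% and 58.0% of the pair in siGYS1 libraries and 69.6% and 68.3% in sip53 libraries, against 58.4% and 55.8% in NC libraries.

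Lactate leaves the cell with a proton through carriers of the SLC16A family. SLC16A3, which encodes MCT4, the carrier of cells that export much lactate, had 105 and 112 TPM in siGYS1 libraries and 175 and 176 TPM in sip53 libraries, against 76.8 and 76.1 TPM in NC libraries. It rose with siGYS1 (0.49, SE 0.09, adjusted p = 0.00665) and with sip53 (1.27, SE 0.09, adjusted p = 6.5e-06), with -0.77 (SE 0.09, adjusted p = 0.000149) between them. SLC16A1, which encodes MCT1, had 73.9 and 61.5 TPM in siGYS1 libraries and 66.7 and 65.9 TPM in sip53 libraries, against 54.7 and 47.3 TPM in NC libraries. It rose by 0.40 with siGYS1 (SE 0.09, adjusted p = 0.0147) and 0.45 with sip53 (SE 0.09, adjusted p = 0.00253), and its 95% interval for siGYS1 against sip53 was -0.25 to 0.15. The siGYS1 call of SLC16A1 was lost without the first sip53 library (adjusted p = 0.0506) or the second NC library (0.130). PDK1, the kinase that inhibits pyruvate dehydrogenase and so holds pyruvate out of the mitochondrial cycle, had 20.5 and 16.2 TPM in siGYS1 libraries and 26.2 and 23.3 TPM in sip53 libraries, against 12.2 and 10.3 TPM in NC libraries. The 3 groups were apart, and PDK1 rose with siGYS1 (0.73, SE 0.11, adjusted p = 0.00278) and with sip53 (1.30, SE 0.11, adjusted p = 1.77e-05).

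The pentose phosphate genes did not move as 1 group. Of the 7 members, siGYS1 raised TKT and lowered H6PD, while sip53 raised RPE, TKT and TALDO1 and lowered PGD, RPIA and H6PD. In the oxidative arm, which yields NADPH, PGLS had 82.0 and 93.1 TPM in siGYS1 libraries and 97.7 and 89.0 TPM in sip53 libraries, against 97.5 and 99.4 TPM in NC libraries. It passed in none of the 3 comparisons, though the difference between siGYS1 and sip53 (-0.17, adjusted p = 0.266) passed without the second siGYS1 library (-0.32, adjusted p = 0.0251). PGD, which makes ribulose 5-phosphate, had 150.4 and 154 TPM in siGYS1 libraries and 141 and 138 TPM in sip53 libraries, against 167 and 169 TPM in NC libraries. The fall with sip53 was -0.24 (SE 0.09, adjusted p = 0.0474), close to the threshold, and leaving out the first or second sip53 library gave an adjusted p of 0.196 and 0.199, and the first or second NC library 0.0636 and 0.275. H6PD, which carries out the first oxidative steps inside the endoplasmic reticulum, had 6.56 and 5.37 TPM in siGYS1 libraries and 5.83 and 6.29 TPM in sip53 libraries, against 9.61 and 7.92 TPM in NC libraries. It fell by 0.57 on the log2 scale with siGYS1 (SE 0.10, adjusted p = 0.00572) and by 0.47 with sip53 (SE 0.10, adjusted p = 0.00442), and the sip53 call was lost without the first sip53 library (adjusted p = 0.0606).

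In the non-oxidative arm, RPIA and TKT went opposite ways with sip53. RPIA, which turns ribulose 5-phosphate into ribose 5-phosphate, lies at chr2:88691644-88750935 on the plus strand. It had 33.7 and 32.4 TPM in siGYS1 libraries and 12.7 and 12.5 TPM in sip53 libraries, against 31.1 and 27.5 TPM in NC libraries. Its level with sip53 was 45.4% of that in NC (-1.14, SE 0.09, adjusted p = 1.17e-05), and it was 2.48-fold higher in siGYS1 than in sip53 (1.31, SE 0.09, adjusted p = 6.61e-06). With siGYS1 against NC the value was 0.17 (SE 0.09, adjusted p = 0.188). TKT, transketolase, had 372 and 380.5 TPM in siGYS1 libraries and 434 and 433 TPM in sip53 libraries, against 266 and 259.6 TPM in NC libraries. It rose with siGYS1 (0.51, SE 0.09, adjusted p = 0.00421) and with sip53 (0.82, SE 0.09, adjusted p = 6.41e-05). The difference of TKT between the knockdowns was -0.31 (SE 0.09, adjusted p = 0.0181) and was lost without the first siGYS1 library (-0.22, adjusted p = 0.0797) or either sip53 library (0.115 and 0.110). TALDO1, transaldolase, had 239 and 270.2 TPM in siGYS1 libraries and 349 and 335 TPM in sip53 libraries, against 250.3 and 254 TPM in NC libraries, and rose with sip53 (0.52, SE 0.11, adjusted p = 0.00289). Its difference between siGYS1 and sip53 (-0.49, adjusted p = 0.00481) was lost without the first sip53 library (adjusted p = 0.0540).

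RPE, the epimerase, had 79.9 and 50.9 TPM in siGYS1 libraries and 70.8 and 68.0 TPM in sip53 libraries, against 64.3 and 48.1 TPM in NC libraries. The siGYS1 libraries spanned the range of sip53 and overlapped that of NC. Its rise with sip53 was 0.39 (SE 0.11, adjusted p = 0.0181) and was lost without the first or second sip53 library (0.142 and 0.0597) or the second NC library (0.130). Leaving out a siGYS1 library changed 2 more calls of RPE: without the second it rose with siGYS1 (0.31, adjusted p = 0.036), and without the first it was lower in siGYS1 than in sip53 (-0.38, adjusted p = 0.0115). Of its exonic bases, 23.8% are shared with KANSL1L on the opposite strand. The PGLS and PGD sum was 0.898 times that of NC in siGYS1 and 0.874 times in sip53, and that of RPIA, RPE, TKT and TALDO1 was 1.21 and 1.43 times.

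Because the first siGYS1 and the second NC library differed from the others by transcript length, the fold changes of siGYS1 against NC were also computed after a trend on length was taken out of each library. Before that, log2 fold change and length had a Spearman correlation of 0.38 across 11187 genes for siGYS1 against NC, against 0.07 for sip53 against NC, as a description over genes that are not independent. With the trend removed, 18 of the 32 genes rose with siGYS1 and 2 fell. SLC2A1 then stood at 0.99 (SE 0.06) and SLC2A3 at 1.57 (SE 0.10), close to their values before. PFKM stood at -0.90 (SE 0.06), HK2 at 0.65 (SE 0.07) and H6PD at -0.83 (SE 0.08). Another 5 that had not passed with TMM scaling alone passed here: TPI1 (0.16, adjusted p = 0.0354), PGK1 (0.20, adjusted p = 0.0286), ENO1 (0.23, adjusted p = 0.00333), LDHA (0.14, adjusted p = 0.0294) and RPIA (0.25, adjusted p = 0.0237).

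**Figure D4:**
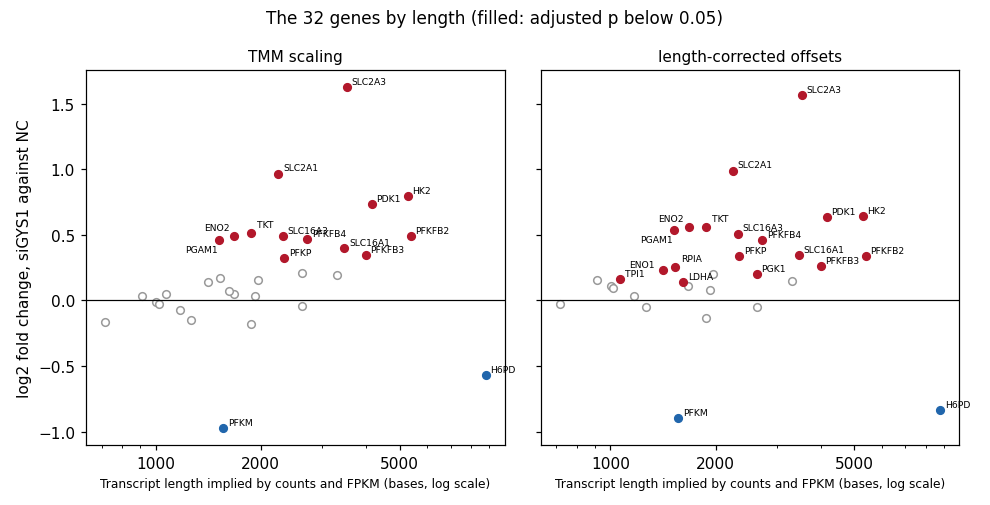
log2 fold change of siGYS1 against NC for the 32 genes over the transcript length implied by the deposited counts and FPKM (bases, log axis), with TMM scaling on the left and with a length trend taken out of each library on the right. Filled markers passed an adjusted p of 0.05: 13 up and 2 down on the left, 18 up and 2 down on the right, with SLC2A3 highest and PFKM lowest in both.

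Promoter sequence is shown for 4 members that rose with sip53 and cover uptake, glycolysis and lactate, so that the letters can be read beside the values above; they were chosen after their values were seen. A promoter window here runs from 250 bases before an annotated start to 50 after it in RefSeq (GRCh38.p14), and 29 of the 32 genes matched, with 55 windows among them; SLC2A3, PFKFB2 and SLC16A1 were not matched. The motif searched on both strands was ACGTG, the core of the hypoxia response element, which is also contained in the E-box CACGTG, where both strands match. It occurred in 19 of the 55 windows, or 34.55%, and in 7518 of all 35116 windows, or 21.41%. By gene it occurred in 51.72% of the 29 members and 24.87% of all genes, with 1.9 and 1.29 windows per gene. It occurred in 11 of the 19 matched members that rose with sip53. Of the 10 that did not rise, 4 had it, among them PGD, which fell. These shares were not tested. Some genes have several windows, so windows are not independent, and a match is a description of letters and not of a bound site. The 250 bases before the start are printed 5′ to 3′ on the gene's strand, with matches in capitals. The LDHA window chr11:18394313-18394562 (plus strand) holds 2 E-boxes and 1 further match, PGK1 chrX:78103998-78104247 (plus strand) holds 2 matches 202 and 183 bases before the start, and ENO2 chr12:6914330-6914579 (plus strand) holds 1 at 118 bases. The SLC2A1 window chr1:42958869-42959118 (minus strand) holds none, nor does a second LDHA window at chr11:18396101-18396350 (plus strand).
LDHA: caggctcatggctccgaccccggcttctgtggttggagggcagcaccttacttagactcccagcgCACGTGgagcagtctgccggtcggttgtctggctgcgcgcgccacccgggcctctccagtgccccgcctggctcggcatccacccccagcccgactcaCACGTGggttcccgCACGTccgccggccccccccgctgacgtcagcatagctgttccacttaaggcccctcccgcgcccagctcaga
PGK1: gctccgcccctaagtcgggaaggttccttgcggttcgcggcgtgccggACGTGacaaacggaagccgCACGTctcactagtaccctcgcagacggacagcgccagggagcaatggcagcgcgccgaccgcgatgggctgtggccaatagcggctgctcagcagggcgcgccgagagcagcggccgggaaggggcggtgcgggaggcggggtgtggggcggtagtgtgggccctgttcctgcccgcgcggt
ENO2: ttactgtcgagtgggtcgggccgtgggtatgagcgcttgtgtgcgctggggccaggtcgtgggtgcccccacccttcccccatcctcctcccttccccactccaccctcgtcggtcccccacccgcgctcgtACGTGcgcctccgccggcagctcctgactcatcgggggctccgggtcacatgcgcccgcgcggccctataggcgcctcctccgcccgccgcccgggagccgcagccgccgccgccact
SLC2A1: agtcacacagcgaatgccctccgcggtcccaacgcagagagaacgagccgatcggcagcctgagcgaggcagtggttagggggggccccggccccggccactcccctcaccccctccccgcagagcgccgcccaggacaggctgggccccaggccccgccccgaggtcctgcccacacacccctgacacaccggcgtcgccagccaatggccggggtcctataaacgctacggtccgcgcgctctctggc
The rises of these genes with sip53 were 1.61-fold for LDHA, 2.01-fold for PGK1, 3.63-fold for ENO2 and 5.33-fold for SLC2A1.

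A wider list of 83 symbols around the pathway held other glucose carriers, other isoenzymes, lactate carriers, pyruvate entry, gluconeogenesis, pentose phosphate neighbours, the glucose response, and the hexosamine, glycerol and polyol branches. Of them 78 were in the table and 56 were tested. How far the call of a single gene of this list depends on 1 library or on the processing was not tested. With siGYS1 10 of the 56 rose and 9 fell, beside 10.4% and 9.24% of all genes tested, and their median log2 fold change was -0.01. With sip53 21 rose and 10 fell, beside 23.4% and 26.5% of all genes, with a median of 0.16. Between the knockdowns 9 were higher and 19 lower in siGYS1 than in sip53, beside 22.5% and 20.9% of all genes. PDK4, a second kinase that inhibits pyruvate dehydrogenase, had 114 and 90.6 TPM in siGYS1 libraries and 215 and 203 TPM in sip53 libraries, against 84.6 and 77.3 TPM in NC libraries, and rose by 0.32 (adjusted p = 0.0405) and 1.44 (SE 0.10, adjusted p = 3.5e-06). PC, pyruvate carboxylase, which feeds oxaloacetate into the mitochondrial cycle, had 10.9 and 11.2 TPM in siGYS1 libraries and 14.2 and 13.7 TPM in sip53 libraries, against 6.60 and 5.50 TPM in NC libraries, and rose by 0.79 (adjusted p = 0.00231) and 1.26 (adjusted p = 2.53e-05). AKR1B1, aldose reductase, which turns glucose into sorbitol, had 2929 and 3590.1 TPM in siGYS1 libraries and 5767 and 5207 TPM in sip53 libraries, against 2253 and 2152 TPM in NC libraries. It rose by 0.57 with siGYS1 (adjusted p = 0.0103) and by 1.40 with sip53 (adjusted p = 1.72e-05).

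TXNIP, an arrestin-like protein that restrains glucose uptake and is itself induced by glucose, went opposite ways in the knockdowns. It had 21.2 and 18.6 TPM in siGYS1 libraries and 44.5 and 46.8 TPM in sip53 libraries, against 25.8 and 24.4 TPM in NC libraries. It fell by 0.35 on the log2 scale with siGYS1 (adjusted p = 0.0242) and rose by 0.94 with sip53 (adjusted p = 2.59e-05), the difference being -1.29. Whether the fall with siGYS1 holds with a library left out was not tested. IDNK, a gluconate kinase that feeds the pentose phosphate pathway, had 15.2 and 16.0 TPM in siGYS1 libraries and 8.21 and 5.43 TPM in sip53 libraries, against 26.1 and 28.9 TPM in NC libraries, and fell in both (-0.84, adjusted p = 0.00456, and -1.87, adjusted p = 1.72e-05). LDHD, a mitochondrial D-lactate dehydrogenase, had 3.30 and 3.02 TPM in siGYS1 libraries and 3.56 and 3.71 TPM in sip53 libraries, against 6.82 and 6.10 TPM in NC libraries, and fell in both (-1.03, adjusted p = 0.0017, and -0.75, adjusted p = 0.00185). SLC16A7, which encodes the lactate and pyruvate carrier MCT2, had 7.87 and 4.51 TPM in siGYS1 libraries and 2.46 and 2.44 TPM in sip53 libraries, against 3.90 and 3.06 TPM in NC libraries, and was higher in siGYS1 than in NC (0.82, adjusted p = 0.0146) and than in sip53 (1.23, adjusted p = 0.000673). SLC2A5, the fructose carrier GLUT5, had 0.96 and 0.64 TPM in siGYS1 libraries and 2.62 and 3.55 TPM in sip53 libraries, against 0.73 and 1.70 TPM in NC libraries, and rose with sip53 (1.12, SE 0.23, adjusted p = 0.00272).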

How the data were processed

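Per the file headers, the deposited table gives each gene in each library an FPKM, a TPM, and read counts before and after normalization. The read counts before normalization are expected counts (estimated counts) as the authors deposited them, since 16.8% to 18.1% of the values per library are not whole (tolerance 1e-09). The submitters' processing notes name several aligners (STAR, HISAT2, TopHat) and counters (HTSeq, featureCounts, Salmon) without roles or versions, and the build mm10, although 16830 of the 16910 identifiers are human genes of GENCODE 29 (GRCh38). The sources used here do not say which of them made the table. The 18 other columns of per-library normalized counts and group means were not used. Coordinates and exon overlaps come from GENCODE 29 on GRCh38.

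Levels are the authors' TPM as deposited. Read counts were rounded, filtered with filterByExpr (minimum count 10), which removed 3675 genes, scaled by TMM and tested with edgeR 4.0.16 (R 4.3.3) by the quasi-likelihood test on group alone. All 6 libraries entered 1 fit, which left 3 residual degrees of freedom and a prior of 6.67. P-values were Benjamini-Hochberg adjusted over all 13235 genes, with a threshold of 0.05. The 95% intervals are the log2 fold change with 2.24 SE to each side, from the t distribution with 9.67 degrees of freedom. The totals were 17425000 to 18097337 counts. On average over genes, replicates differed by more than the sampling of reads. The mean chi-square per gene between replicates was 15.8 in siGYS1, 3.41 in sip53 and 8.61 in NC, so that no pair was 1 library in 2 copies. It was taken over genes with at least 20 reads in the pair and weighs abundant genes most. For genes with few reads, sampling may still limit precision. Alternatives were RLE size factors, library sizes alone, no filter, DESeq2 1.42.0, the compared groups alone, a replicate block, offsets corrected for transcript length, limma 3.58.1 on log2(FPKM + 1) and log2(FPKM + 0.1) of the deposited FPKM, and each library left out. The length was that implied by the deposited counts and FPKM. The main fit was also run on simulated counts, with the same spread per gene in every group and no length trend. That run cannot speak to the unequal spread of the groups or to the length trends of these libraries. The members and the lists were chosen with earlier results of these data known. Every member was named; of the wider list, genes with a change of at least 2-fold past the threshold in any comparison and a mean of at least 1 FPKM were named. The level of the sip53 target is not reported here.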

Additional observations from a re-analysis of the deposited data

How the results depend on the processing

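Every fold change of the 32 genes that passed the threshold kept its direction in all 16 alternatives. Of those that did not pass, 11 of 17 for siGYS1 against NC, 5 of 8 for sip53 against NC and 5 of 10 for siGYS1 against sip53 crossed 0 in some alternative, all with log2 values between -0.16 and 0.16 as reported. GAPDH in siGYS1 against NC, at -0.01, ran from -0.11 to 0.17 on leaving out libraries. It stood at 0.17 without both siGYS1 replicate 1 and NC replicate 2, an alternative chosen after seeing the data. The cause was not tested. For siGYS1 against NC, 10 of the 15 calls held in every alternative and the other 5 (PFKP, PFKFB2, PFKFB3, PFKFB4 and SLC16A1) were lost in some; for sip53 against NC 20 of 24 held and for siGYS1 against sip53 18 of 22. For sip53 against NC, the GAPDH call was lost with limma on log2(FPKM + 1) and log2(FPKM + 0.1) (0.25 each, adjusted p = 0.252 and 0.235). The GAPDH difference of siGYS1 from sip53 was lost there too (adjusted p = 0.152 and 0.136). The PGD call with sip53 was lost in edgeR with RLE size factors (adjusted p = 0.0693) or no filter (0.0861), and in DESeq2 (0.0863). Counts over all genes moved more. For siGYS1 against NC the 1379 genes up became 2528 with a replicate block, 2131 with length-corrected offsets, 808 with the compared groups alone, and 619 and 645 with limma on log2(FPKM + 1) and log2(FPKM + 0.1), and the 1223 down became 2134 with the block, 1989 with length correction, 769 with the compared groups alone and 799 with DESeq2. For sip53 against NC the 3103 up became 2056 and 2060 with limma at those pseudocounts.

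Leaving out each library in turn, or the first siGYS1 and the second NC library together, gave, for siGYS1 against NC, 435 to 2528 genes up and 491 to 1732 down, and 8 to 16 of the 32 genes up. For sip53 against NC it gave 2029 to 3785 genes up and 2242 to 4001 down, and 1 to 3 of the 32 genes down. For siGYS1 against sip53 it gave 1820 to 3269 genes up and 1596 to 3078 down, and 1 to 3 of the 32 genes up. The lowest counts for siGYS1 against NC came without the second NC library and for the other comparisons without the first sip53 library. A left-out library leaves 1 library in its group, which is then assumed to vary like the others. Without both the first siGYS1 and the second NC library, the spread comes from the sip53 pair alone, so calls in that fit are descriptions.

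The replicate numbers were not taken as pairs, because the labels do not say that they pair libraries. For each group, the difference of replicate 1 from replicate 2 was taken in each of 13235 genes. These differences correlated at 0.28 between siGYS1 and NC, 0.13 between siGYS1 and sip53, and -0.02 between sip53 and NC. Whether same-numbered libraries were handled together was not tested. With the replicate block, 15 of the 32 genes rose and 2 fell for siGYS1 against NC, 23 rose and 3 fell for sip53 against NC, and 3 were higher and 22 lower in siGYS1 than in sip53. Shares and sums of TPM were not tested.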
